A study of Mus musculus with 6 samples.

Results

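Lipn and its relatives, the acid lipases encoded on mouse chromosome 19, were examined in dorsal root ganglia after vincristine. The set held the 5 genes listed under the symbols Lipa, Lipf, Lipk, Lipn and Lipm, of 38926 gene symbols in the deposited tables. Lipn was chosen by the measured difference in its reads between the groups, so that difference is given as a description without a test. The other 4 members were taken for their family and position. Whole ganglia of lumbar levels 3, 4 and 5, which hold the cell bodies of sensory neurons with their glia, vessels and immune cells, were taken on the treated side. The animals were female wild type C57BL/6 mice aged 8 to 10 weeks, with tissue of 4 mice pooled into each sample. The vehicle group had 3 such pools, and the vincristine group had 3 pools from mice given a cumulative 40 µg into the paw. The libraries held 12374331 to 26346304 reads in genes, and vincristine sample 1, the shallowest, stood apart from the rest on the first principal component. Vincristine is a microtubule-binding chemotherapy drug that causes peripheral neuropathy, and the comparison asks which transcripts differ in the ganglia after it.

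Acid lipases are secreted or lysosomal hydrolases that release fatty acids from triglycerides and cholesteryl esters. Lipa encodes lysosomal acid lipase, which most cells use to break down the lipids of endocytosed lipoproteins and of lipid droplets delivered by autophagy. Lipf encodes gastric lipase. Lipk, Lipn and Lipm are known mainly from the outer, differentiating layers of the epidermis, and human LIPN has been linked to an inherited ichthyosis, a scaling disorder of the skin.

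In GENCODE M21 on GRCm38, Lipf lies at chr19:33961187-33976810, Lipk at chr19:34008290-34047835, Lipn at chr19:34067358-34084918 and Lipm at chr19:34100933-34122687, all on the plus strand. Lipa lies farther along at chr19:34492318-34527474 on the minus strand. The longest coding transcript of each of the 5 genes has 10 exons. The 250 bases before the start of Lipn, the member that appeared with the drug, and of Lipa, the abundant member, are shown 5′ to 3′ on the strand of each gene from RefSeq on GRCm38.p6. Capitals in the Lipn line mark a match to the AP-1 motif TGANTCA. No exon of an annotated gene lies in either window.
Lipn, chr19:34067108-34067357, plus strand: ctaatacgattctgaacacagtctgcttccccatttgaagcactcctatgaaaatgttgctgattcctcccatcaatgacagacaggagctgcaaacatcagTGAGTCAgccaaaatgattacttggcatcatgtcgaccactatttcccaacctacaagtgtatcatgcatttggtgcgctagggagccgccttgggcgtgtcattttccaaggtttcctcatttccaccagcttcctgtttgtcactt
Lipa, chr19:34527475-34527724, minus strand: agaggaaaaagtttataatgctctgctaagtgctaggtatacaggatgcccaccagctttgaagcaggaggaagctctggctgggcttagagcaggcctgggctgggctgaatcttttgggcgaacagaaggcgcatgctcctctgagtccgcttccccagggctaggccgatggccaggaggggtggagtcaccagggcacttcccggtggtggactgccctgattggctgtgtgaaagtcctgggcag

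The Lipn window held 1 AP-1 match, TGAGTCA, which begins at position -148 from the start, and the Lipa, Lipf and Lipm windows held none. The motif reads the same on both strands and overlaps no other motif searched. AP-1 is the family of Jun, Fos and Atf dimers. The motif occurred in 7.81% of 32851 promoter windows. All windows searched were longer than the bases printed and ran on past the start, for Lipn chr19:34067108-34067407. Of tested genes with a window, 755 of 11506 held it (6.56%). Among genes other than Lipn called higher after vincristine, 9 of 38 with a window held it (23.7%). Of those called lower, 0 of 5 held it, and 2 of 15 in a list of injury-induced neuronal genes did (13.3%). Shares by group of genes were counted for this motif only. CACGTG, the E-box within the lysosomal CLEAR element, was found in 7.15% of windows and TGACGTCA, the cyclic AMP response element, in 1.79%. Neither was found in the windows of Lipn, Lipf, Lipm or Lipa. TATAAA, the TATA box, was found in 13.6% of windows and, on the opposite strand, in that of Lipa at position -239. All 4 motifs were searched on both strands. The motifs were picked with the results known, and these shares were not tested. Such a match describes the letters of these windows and no binding was measured here.

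Lipn transcripts were nearly absent from vehicle ganglia and present in every vincristine sample. The gene had 0, 0 and 1 reads in vehicle samples 1, 2 and 3 and 42, 46 and 107 reads in vincristine samples 1, 2 and 3. In CPM, read counts scaled to library size with TMM factors, these were 0, 0 and 0.050 in vehicle and 3.25, 2.40 and 4.12 in vincristine. The groups did not overlap, as for 11.5% of tested genes with the higher values in vincristine, and the lowest vincristine value was in sample 2. The choice of Lipn used this contrast. The means were 0.0167 ± 0.0289 CPM (SD, n = 3) and 3.26 ± 0.861 CPM (SD, n = 3). With 195 reads against 1 over similar group totals, the ratio was 192, with an exact 95% interval of 34 to 7612 that covers counting error only. A count of 3 reads, the limit that a count of 0 allows, corresponds to 0.0526 CPM over the vehicle group. Lipn had 1 read there, for which the limit is higher. In bulk tissue, a change in the number of cells of a type and a change in RNA per cell cannot be told apart.

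Reads of the sequenced length could be placed in Lipn without sharing. None of the 1954 windows of 75 bases in its annotated transcripts was found in another annotated gene. The same held for Lipk, Lipf and Lipa. In Lipm 67.8% were unique, and the shared windows lie in Ankrd22, which overlaps Lipm on the opposite strand. A small RNA gene, Gm23334, lies within Lipn on the same strand. Lipn was still a transcript of modest abundance after the drug: 13763 of the 16706 tested genes had a mean vincristine CPM at or above that of Lipn.

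Lipa, the lysosomal member, was the most abundant, and no difference between the groups was detected. Its values were 90.7, 86.0 and 88.3 CPM in vehicle and 70.5, 89.7 and 90.6 CPM in vincristine. The groups overlapped, and vincristine sample 1 was the lowest of the 6. The means were 88.3 ± 2.33 and 83.6 ± 11.4 CPM (SD, n = 3 each). The log2 fold change, vincristine minus vehicle, was -0.08 ± 0.13 (SE), with a 95% interval of -0.37 to 0.22 and an edgeR adjusted p of 0.846. As a ratio, the interval runs from 0.772 to 1.16. Without vincristine sample 1 the log2 fold change was 0.03.

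Lipk, an epidermal member beside Lipn, was detected at a low level in every sample. It had 17, 29 and 23 reads in vehicle and 8, 24 and 40 in vincristine, or 0.952, 1.51 and 1.15 CPM against 0.619, 1.25 and 1.54 CPM. The groups overlapped, with the lowest and the highest value both in vincristine. The means were 1.20 ± 0.283 and 1.14 ± 0.472 CPM (SD, n = 3 each). The log2 fold change was -0.03 ± 0.37 (SE), with a 95% interval of -0.90 to 0.84 and an edgeR adjusted p of 0.984. As a ratio, the interval runs from 0.535 to 1.79, so a change within it was not detectable at this depth. Leaving out vehicle sample 2 turned the log2 fold change to 0.17, and leaving out vincristine sample 1 turned it to 0.22.

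Lipm and Lipf were at or near the detection limit. Lipm, another epidermal lipase, had 1 read in vehicle sample 2 and 0 in each of the other 5 libraries. Lipf, the gastric lipase, had 0 reads in all 6 libraries. A count of 0 over the vincristine group allows up to 0.0517 CPM, so for both genes the level was below what this depth can compare. In all, 3 of the 5 members passed the filter on low counts.

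**Figure D1:**
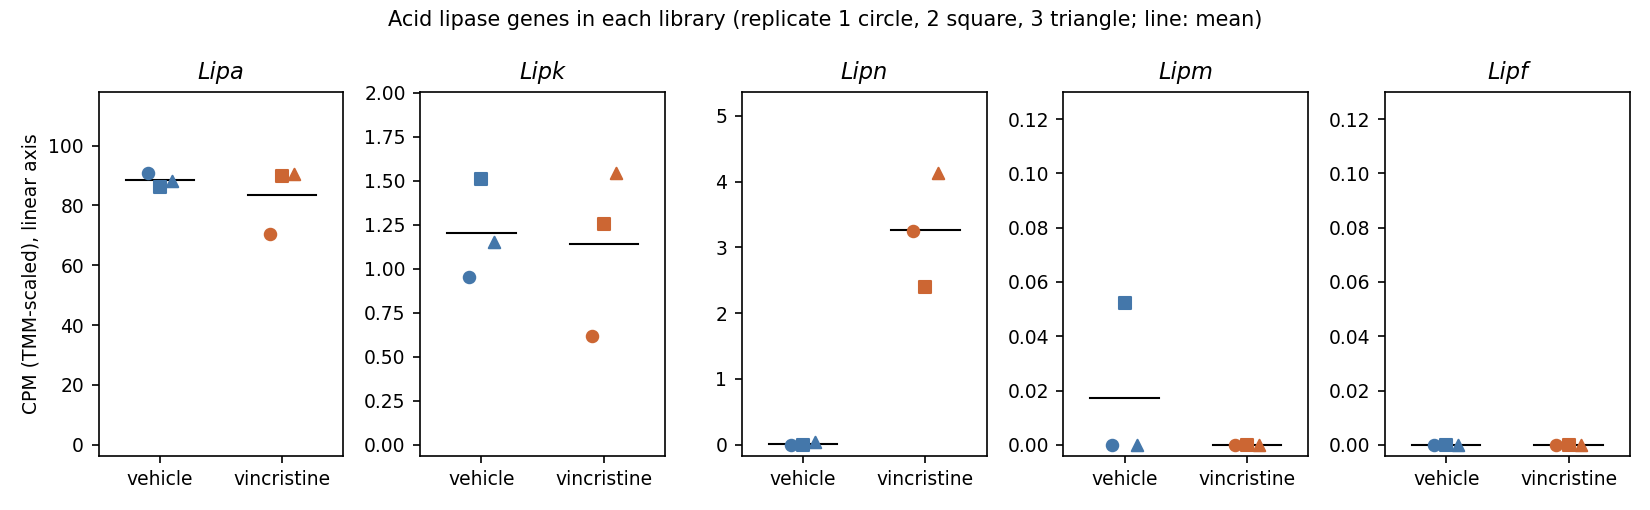
CPM of each acid lipase in each library, on a linear axis with its own scale for each gene; points are single pools and lines are group means. Lipn lies at 0 to 0.050 in vehicle and 2.40 to 4.12 in vincristine, while the groups overlap for Lipa and Lipk and Lipf and Lipm lie at or near 0.

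Per length of the longest coding transcript, Lipa was highest in both groups and the order of Lipn and Lipk changed. In CPM per kilobase of that transcript (RPKM), Lipa was at 29.8 ± 0.786 in vehicle and 28.2 ± 3.83 in vincristine (SD, n = 3 each). In vehicle, Lipk followed at 0.567 ± 0.133 RPKM and Lipn was at 0.0111 ± 0.0192 RPKM. In vincristine, Lipn was at 2.16, 1.60 and 2.75 RPKM and Lipk at 0.291, 0.590 and 0.725 RPKM. The ranges of Lipn and Lipk did not overlap in either group. As a share of Lipa in the same library, Lipn reached 9.12%, 5.29% and 9.0% in vincristine samples 1, 2 and 3, against 0%, 0% and 0.112% in vehicle. The same share for Lipk was 1.47%, 2.45% and 1.82% in vehicle and 1.23%, 1.95% and 2.38% in vincristine, with overlapping groups. These shares depend on the length used: per base of all annotated exons, a total that for Lipa is 6780 bases against 2969 in its longest coding transcript, Lipn was at 16.6%, 9.64% and 16.4% of Lipa in vincristine. On that scale Lipk was at 3.24%, 5.42% and 4.02% in vehicle and 2.71%, 4.31% and 5.25% in vincristine, and Lipn stayed above Lipk in each vincristine library.

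The genes around Lipn were followed to see how far along the chromosome a difference extended. From 250 kb before Lipf to 250 kb after Lipa, 20 protein-coding genes were in the tables, of which 15 apart from Lipn could be tested. None of these 15 was called by edgeR, 4 had an unadjusted p under 0.05, DESeq2 called 2, and 8 had a positive log2 fold change. Lipn is left out of these counts because its choice used this contrast. The background was 0.293% of tested genes called higher and 0.0658% called lower (49 and 11 of 16706, edgeR quasi-likelihood test, adjusted p under 0.05), and 11.4% of tested genes had an unadjusted p under 0.05. DESeq2 called 3.41% of the genes it tested. Relative to the start of Lipn, the start of Lipk lies at -59.1 kb, that of Lipm at 33.6 kb and that of Ankrd22 at 98.7 kb.

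Ankrd22, which encodes an ankyrin repeat protein, had the largest fitted difference of the tested neighbours apart from Lipn. It had 28, 17 and 14 reads in vehicle and 136, 64 and 78 in vincristine. In CPM these were 1.57, 0.886 and 0.700 against 10.5, 3.34 and 3.01, and the groups did not overlap. The log2 fold change was 2.39 ± 0.59 (SE), with a 95% interval of 0.99 to 3.78. It did not pass the edgeR test (adjusted p = 0.201) and passed with DESeq2 (adjusted p = 0.00253), which called 3.41% of the genes it tested in either direction. The highest value came from vincristine sample 1; without that library the log2 fold change was 1.60 (edgeR adjusted p = 0.0613). Neutrophil marker levels, given further on, were also highest in that library, and their part in the Ankrd22 values was not tested. The 250-base window before the RefSeq start of Ankrd22 held an AP-1 match, TGACTCA, beginning at position -10. That window, chr19:34166042-34166291 on the minus strand, held 12 bases of annotated exons. The GENCODE model of Ankrd22 runs to chr19:34166053, so the match lies within the annotated gene and not before it.

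None of the other neighbours passed the edgeR test. Slc16a12, a creatine transporter, was at 33.1, 36.0 and 27.6 CPM in vehicle and 14.5, 20.8 and 21.1 CPM in vincristine, and the groups did not overlap, as for 9.51% of tested genes with the lower values in vincristine. Its log2 fold change was -0.77 ± 0.18 (edgeR adjusted p = 0.185, DESeq2 adjusted p = 0.00907). Fas, a death receptor, had a log2 fold change of 0.76 ± 0.31 (edgeR adjusted p = 0.410). Ch25h, which makes 25-hydroxycholesterol, had 0.56 ± 0.27 (edgeR adjusted p = 0.494). Of the interferon-induced Ifit genes beyond Lipa, Ifit1bl2 had 1.20 ± 0.42 (edgeR adjusted p = 0.353), and Ifit1, Ifit2, Ifit3, Ifit1bl1 and Ifit3b lay between -0.14 and 0.20. Stambpl1, a deubiquitinase, had -0.16 and Acta2, smooth muscle actin, had 0.16.

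**Figure D2:**
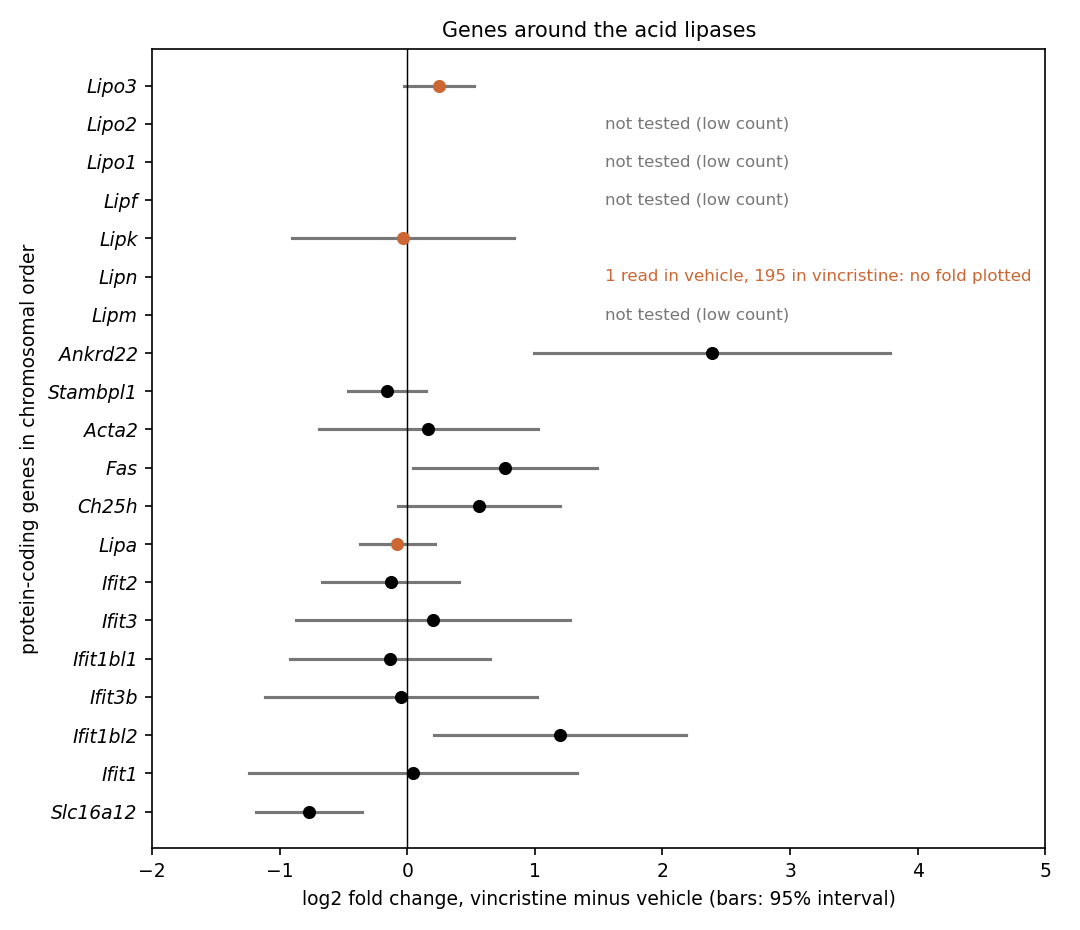
Log2 fold change, vincristine minus vehicle, of the protein-coding genes around the acid lipases in chromosomal order, with 95% intervals as bars and acid lipases in orange. Lipn is given as its reads, 1 in vehicle and 195 in vincristine, while Ankrd22 lies at 2.39 and the intervals of Lipk and Lipa span 0.

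The Lipo genes, acid lipases of unassigned function next to Lipf, gave 1 testable gene. The row listed as Lipo1 is read here as the gene now called Lipo3, because the tables also list Gm5097, the older name of the present Lipo1. It was at 15.7, 14.5 and 14.8 CPM in vehicle and 19.2, 18.1 and 16.3 CPM in vincristine, with groups that did not overlap. The log2 fold change was 0.25 ± 0.12 (SE), with a 95% interval of -0.02 to 0.52 and an edgeR adjusted p of 0.482. Lipo2 had 0, 5 and 3 reads in vehicle and 0, 4 and 9 in vincristine. Lipo4 had 1 read, in vehicle sample 3. Of the 75-base windows in annotated transcripts, 87.2% were unique to the gene in Lipo3, 70.8% in Lipo2 and 75.8% in Lipo4, and the Lipo3 and Lipo2 spans overlap, so these values are uncertain.

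Outside the acid lipases, Liph was the 1 gene called of 9 tested in the lipoprotein and pancreatic lipase family. Over all tested genes, edgeR called 0.359%. Liph encodes a membrane-bound phospholipase that produces lysophosphatidic acid. It had 8, 6 and 9 reads in vehicle and 23, 61 and 106 in vincristine, or 0.448, 0.313 and 0.450 CPM against 1.78, 3.18 and 4.09 CPM. Each vincristine value was above every vehicle value. The means were 0.404 ± 0.0787 and 3.02 ± 1.16 CPM (SD, n = 3 each), and the log2 fold change was 2.91 ± 0.39 (SE, edgeR adjusted p = 0.0443). The call was lost in 7 of 14 alternatives, with adjusted p from 1.30e-06 to 0.275, among them leaving out any vehicle library or vincristine sample 2 or 3. No gene at all was called when a vehicle library was left out.

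The 9 tested genes of that family had a median log2 fold change of 0.19, against -0.00 over all genes, and the other 8 were not called. Lpl, the lipase of capillary walls that acts on circulating lipoproteins, had 0.50 ± 0.29 (edgeR adjusted p = 0.563), and Angptl4, its inhibitor, had 0.52 ± 0.26 (edgeR adjusted p = 0.507). Lipg, endothelial lipase, had 0.19 and Lipc, hepatic lipase, had -0.15. Pnliprp2, a pancreatic lipase-related gene named after its values were seen, had 0 reads in each vehicle library and 2, 4 and 12 in vincristine, too few to test.

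**Figure D3:**
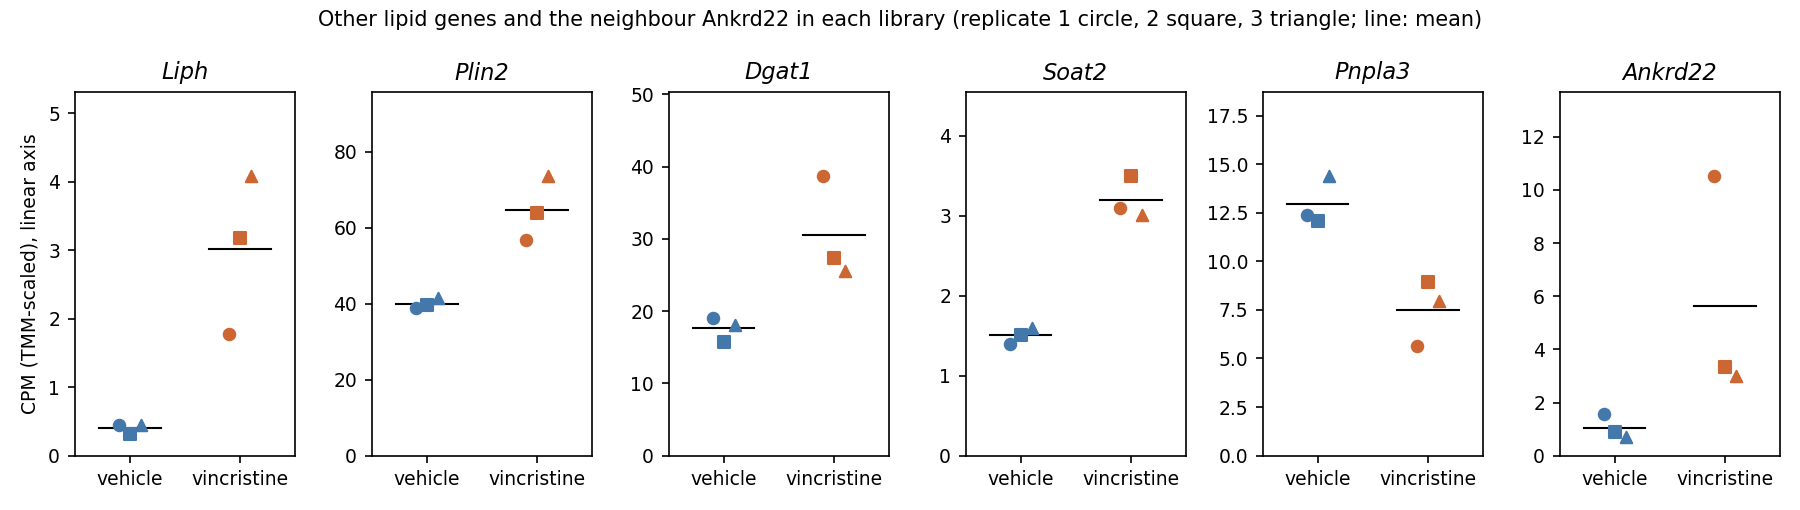
CPM of other genes described beside the acid lipases in each library, on a linear axis with its own scale for each gene; points are single pools and lines are group means. Liph lies between 0.313 and 0.450 in vehicle and 1.78 and 4.09 in vincristine, and Ankrd22 is highest in vincristine sample 1, at 10.5.

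Genes that act with Lipa in the lysosome showed no called member. Of 25 genes of lysosomal cholesterol and lipid handling, all were tested and 0 were called by edgeR, with a median log2 fold change of 0.05. An unadjusted p of 0.05 was passed by 1, against 11.4% of all tested genes. DESeq2 called 1, against 3.41% of the genes it tested. Soat2, which re-esterifies cholesterol, was at 1.40, 1.51 and 1.60 CPM in vehicle and 3.10, 3.50 and 3.01 CPM in vincristine. Every vincristine value exceeded the vehicle values, and the log2 fold change was 1.08 ± 0.20 (edgeR adjusted p = 0.108, DESeq2 adjusted p = 0.00956). Soat1, the more widely expressed enzyme of the same kind, had 0.28 ± 0.13 (edgeR adjusted p = 0.479). Npc1 and Npc2, which carry the cholesterol freed by lysosomal acid lipase out of the lysosome, had 0.06 ± 0.09 and 0.05 ± 0.13 (edgeR adjusted p = 0.851 and 0.919).

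Of 24 genes of lysosome biogenesis and proteolysis, 0 were called by edgeR and 7 had an unadjusted p under 0.05 with higher values in vincristine. Of all tested genes, 11.4% passed it in either direction. DESeq2 called 1, against 3.41% of the genes it tested. Their median log2 fold change was 0.11. Gpnmb, a glycoprotein of phagocytic cells, was at 8.35, 7.76 and 4.35 CPM in vehicle and 11.9, 14.7 and 17.0 CPM in vincristine. Its groups did not overlap, and its log2 fold change was 1.10 ± 0.26 (edgeR adjusted p = 0.195, DESeq2 adjusted p = 0.0106). Cd63, Gusb and Ctss, which encode a membrane protein and hydrolases of lysosomes, had 0.53 ± 0.16, 0.36 ± 0.11 and 0.76 ± 0.25 (edgeR adjusted p = 0.279, 0.284 and 0.319). Tfeb, the transcription factor that switches on lysosomal genes, had 0.05.

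The enzymes and coat proteins of cytosolic lipid droplets, the other route by which stored fat is broken down, also had 0 of 24 members called by edgeR. With DESeq2, 3 were called, against 3.41% of all genes it tested. The edgeR p before adjustment was under 0.05 for 2 with higher and 1 with lower values. That share lay near the 11.4% of all tested genes, and the median log2 fold change was 0.05. Plin2, a lipid droplet coat protein, was at 38.9, 39.6 and 41.5 CPM in vehicle and 56.9, 63.9 and 73.6 CPM in vincristine, with no overlap. Its log2 fold change was 0.70 ± 0.12 (edgeR adjusted p = 0.0897, DESeq2 adjusted p = 0.000212), and without vincristine sample 1 the edgeR adjusted p was 0.00797. Dgat1, which completes triglyceride synthesis, had 0.79 ± 0.18 (edgeR adjusted p = 0.185, DESeq2 adjusted p = 0.0150). Pnpla3, a droplet-bound lipase, had -0.78 ± 0.19 (edgeR adjusted p = 0.198, DESeq2 adjusted p = 0.0143). Pnpla2, which starts triglyceride breakdown, had 0.01 ± 0.12, and Lipe and Mgll, which continue it, had 0.45 ± 0.26 and -0.21 ± 0.14 (edgeR adjusted p = 0.989, 0.569 and 0.616).

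Genes known to act in the epidermis, as Lipn is, had no called member among the barrier lipid enzymes and 1 among the cornified envelope genes. Of 19 enzymes and carriers of epidermal barrier lipids, 11 were tested and 0 were called by edgeR or DESeq2. None had an unadjusted p under 0.05, and the median log2 fold change was 0.03. Over all tested genes, edgeR called 0.359%, and 11.4% had an unadjusted p under 0.05. DESeq2 called 3.41% of the genes it tested. With shares this low, 0 calls among 11 genes says little about the list. Tgm1, which cross-links the envelope of cornified cells, had 1.12 ± 0.52 (edgeR adjusted p = 0.480) and Nipal4, an ichthyosis gene, had 1.13 ± 0.61 (edgeR adjusted p = 0.542). Cyp4f39 and Elovl4 went the other way, with -0.65 ± 0.41 and -0.28 ± 0.21 (edgeR adjusted p = 0.596 and 0.654). Of the 11 tested, 7 had a positive log2 fold change. Pnpla1, which makes the acylceramides of the barrier, had 3, 4 and 1 reads in vehicle and 13, 9 and 7 in vincristine, too few to test. Abca12, also too low to test, had 11, 8 and 19 reads in vehicle and 2, 4 and 8 in vincristine.

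Of 23 cornified envelope genes, 15 had no read in any library, 4 were tested and 1 was called higher, against 0.293% of all tested genes. That gene was Sprr1a, a cornified envelope protein that is also induced in injured sensory neurons. It had 6, 9 and 2 reads in vehicle and 431, 945 and 2123 in vincristine, so that each vincristine library was far above the vehicle range. The log2 fold change was 7.50 ± 0.53 (edgeR adjusted p = 0.00732), a call that, like every other, was lost when any vehicle library was left out.

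**Figure D4:**
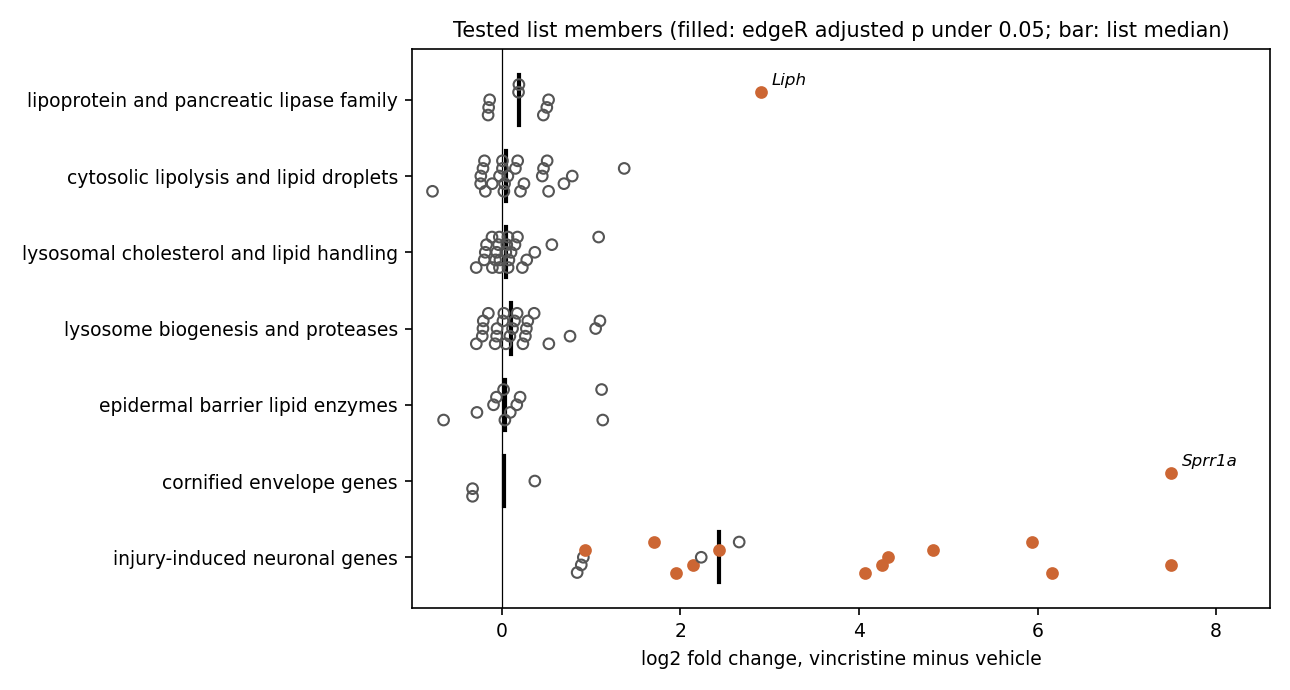
Log2 fold change, vincristine minus vehicle, of tested genes in each pathway list, with a point for each gene, filled where the edgeR adjusted p is under 0.05, and a bar at the list median. The lipid and lysosome lists have medians of 0.03 to 0.19, the injury list lies at 2.43, and Sprr1a at 7.50 is the point farthest to the right.

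Most tested genes of a list of injury-induced neuronal genes rose in the libraries in which Lipn appeared. Of 18 listed, 17 were tested, 12 were called higher and 0 lower, with a median log2 fold change of 2.43. Over all tested genes, 0.293% were called higher and 0.0658% lower. These genes were listed with earlier results of these data known. The count was 0 when any vehicle library was left out, 5 without vincristine sample 2 and 17 without vincristine sample 1. Over all tested genes the count was then 0, 6 and 346. Atf3, a transcription factor of injured neurons, had 142, 145 and 121 reads in vehicle and 1669, 3746 and 7495 in vincristine (log2 fold change 4.83 ± 0.33, edgeR adjusted p = 0.00732). Per 100 Atf3 reads of the same library, Lipn had 2.52, 1.23 and 1.43 reads in vincristine samples 1, 2 and 3 and 0, 0 and 0.826 in vehicle. Nts, a neuropeptide, and Gadd45a, a stress-response gene, had log2 fold changes of 4.32 ± 0.27 and 1.70 ± 0.12 (edgeR adjusted p = 0.00732 for both).

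Markers of epidermis had similar summed levels in both groups. Of 18 epidermal markers, 6 were tested and 0 were called, against 0.359% of all tested genes called by edgeR. The summed level was 14.7 to 15.5 CPM in vehicle and 14.8 to 15.9 CPM in vincristine. Of the 6 tested markers, 4 had a positive log2 fold change. The range was -0.53 for Krtdap to 0.29 for Sbsn, whose groups did not overlap (edgeR adjusted p = 0.671 and 0.596). Cdsn, with too few reads to test, had 1, 2 and 1 in vehicle and 2, 9 and 7 in vincristine. Krt5, Flg, Flg2 and Hrnr, among them a basal keratin and filaggrin, had 0 reads in all libraries. Krt14, another basal keratin, had 3, 5 and 2 reads in vehicle and 0, 3 and 17 in vincristine, too few to test. Krt1, a keratin of differentiating epidermis, had 12, 8 and 12 reads in vehicle and 5, 8 and 9 in vincristine, and Krt10, its partner, had a log2 fold change of 0.05. Stomach markers summed to 1.40 to 1.79 CPM in vehicle and 0.925 to 2.19 CPM in vincristine, and 5 of 10 were at 0 throughout.

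Markers of immune cells had higher summed levels in the vincristine libraries, though no marker was called by edgeR, and neuronal markers were lowest in vincristine sample 1. Summed levels of 12 neutrophil markers were 839 to 1460 CPM in vehicle and 2672 to 8066 CPM in vincristine; 0 were called by edgeR, 12 had an unadjusted p under 0.05, and DESeq2 called 11. Their medians on the log2 scale relative to the vehicle mean were 2.86, 1.34 and 1.44 in vincristine samples 1, 2 and 3, in which Lipn was at 3.25, 2.40 and 4.12 CPM. Summed levels of 16 macrophage markers were 970 to 1225 CPM in vehicle and 1481 to 2770 CPM in vincristine, with 0 called by edgeR, 12 at an unadjusted p under 0.05 and 7 called by DESeq2. Over all tested genes, 11.4% had an unadjusted p under 0.05, and DESeq2 called 3.41% of the genes it tested. None of these markers was at 0. Sensory neuron markers, 15 in number, summed to 10521 to 13684 CPM in vehicle and 4736 to 12427 CPM in vincristine, lowest in sample 1, and 0 were called. The mean of Lipn in vincristine was 3.26 CPM both with and without sample 1, whose own value of 3.25 CPM lay at that mean. The part of these cell types in the Lipn values was not tested. Adipocyte markers summed to 65.3 to 206 CPM in vehicle and 120 to 311 CPM in vincristine, and 0 of 9 tested were called; satellite glia and Schwann cell markers had medians of 0.16 and 0.10 with 0 called.

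**Figure D5:**
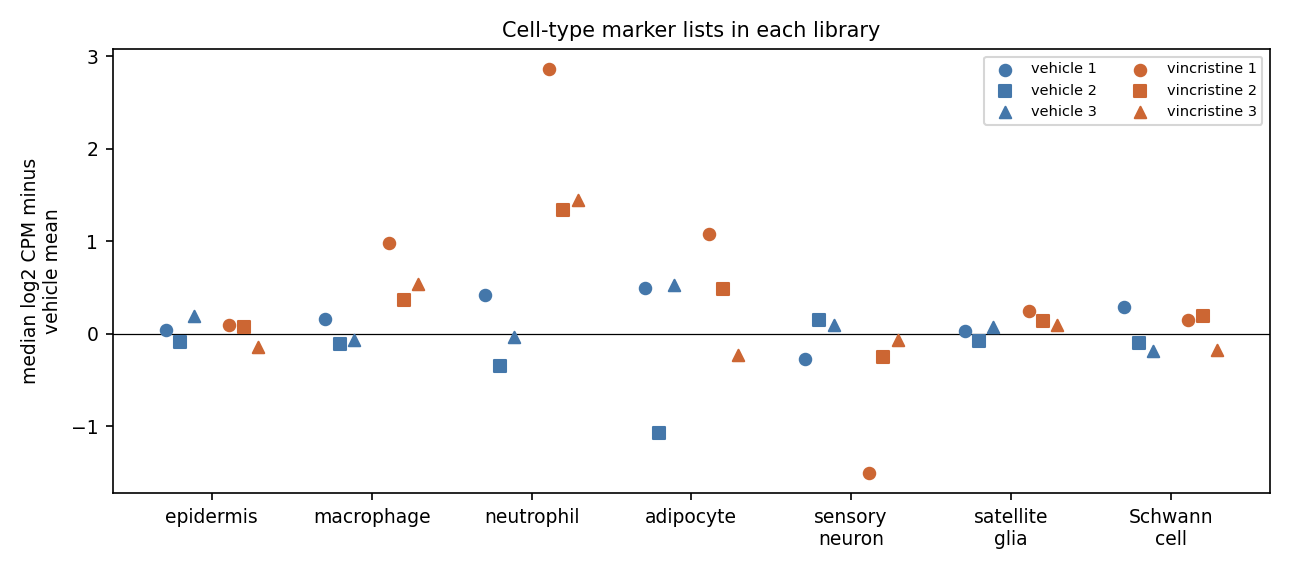
Marker levels of each cell type in each library, as the median over genes of the log2 CPM difference from the vehicle mean. Neutrophil markers lie at 2.86, 1.34 and 1.44 in vincristine samples 1, 2 and 3, and sensory neuron markers are lowest in vincristine sample 1, at -1.51.

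Few other genes fell within the bounds on reads that Lipn met. Of 25963 symbols with a read, 4 (0.0154%) had at most 3 reads over the vehicle libraries and at least 10 in each vincristine library, the bounds that Lipn itself meets. They were Lipn, Oas1e, Ucn2 and 2010005H15Rik. Symbols ending in Rik were to be passed over under this rule, but the last is given because the count is small. Oas1e, a member of the oligoadenylate synthetase family, had 0, 1 and 0 reads in vehicle and 17, 25 and 45 in vincristine. Ucn2, a peptide of the corticotropin-releasing family, had 0, 1 and 1 reads in vehicle and 12, 19 and 40 in vincristine. In all 3, the smallest vincristine count was in sample 1, as it was for Lipn, and sample 1 had the fewest reads. The count of genes depends on the bounds. Cckbr, Sprr1a and Npy lie outside them, with 12, 17 and 20 reads over vehicle and 983, 3499 and 418 over vincristine. Because Lipn was chosen by this contrast, the count does not measure how unusual its pattern is.

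Among 14679 genes, those whose log2 CPM followed Lipn most closely over the 6 libraries were Mthfd2, Tes, Socs3, Fam214b and Smim3, with Pearson r of 0.999, 0.998, 0.998, 0.997 and 0.992. The ranking depends on the prior count, a small count added before the log, here 2. With 0.5, the closest were Socs3, Ubac1, Kctd20, Mthfd2 and Tes, with r of 0.996, 0.995, 0.995, 0.994 and 0.993. Of these, Ubac1 and Kctd20 were not called by edgeR, with log2 fold changes of 0.44 and 0.19. These are descriptions: the difference between groups makes up most of each pattern. Mthfd2, a mitochondrial folate enzyme, was at 18.5, 17.9 and 19.8 CPM in vehicle and 40.5, 38.2 and 45.3 CPM in vincristine. Like Lipn, it was lowest in sample 2 and highest in sample 3 among the vincristine libraries. Socs3, a feedback inhibitor of cytokine signalling, was at 12.2, 11.5 and 13.0 CPM in vehicle and 25.1, 22.8 and 25.2 CPM in vincristine. Genes closest to Lipa were Ilf2, AI837181, Nprl2, Sdhc and Hc, with r of 0.998, 0.995, 0.993, 0.993 and 0.991; each shared the low value of vincristine sample 1, such as Sdhc, a subunit of mitochondrial complex II, at 80.2, 76.6 and 78.0 CPM in vehicle and 69.6, 78.6 and 79.4 CPM in vincristine.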

How the data were processed

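Per the labels' protocols, stranded total RNA libraries were read as single-end reads of 75 nucleotides, and each of the 6 samples is a separate pool of 4 mice. Each sample has its own table of whole read counts for gene symbols, which the authors deposited without normalization. Per the submitters' processing notes, the tools were STAR, SAMtools and HTSeq on mm10 (GRCm38). Tool versions, annotation and strand setting were not given in the sources used here. Genes that overlap on opposite strands, such as Lipm and Ankrd22, may share reads. Table names carry a dose of 10 µg rather than 40 µg and the number 4 for vehicle sample 3; groups and numbers follow the sample labels. Summary lines of the counter were left out of library sizes: not unique 31.1% to 40.5%, no feature 14.8% to 24.8% and ambiguous 0.253% to 0.331%. Each library had 12374331 to 26346304 reads in genes.

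The test was that of edgeR 4.0.16 under R 4.3.3 (filterByExpr with a minimum count of 10, which left 16706 genes; TMM scaling; robust quasi-likelihood fit on treatment with 4 residual degrees of freedom; two-sided p-values with Benjamini-Hochberg adjustment over all tested genes; threshold 0.05). The biological coefficient of variation common to all genes was 0.193. The SE was taken as the absolute log2 fold change over the root of F, and intervals use the t distribution of that fit. Between scalings, the log2 fold change of the median gene shifted by up to 0.00813. Libraries of a group differed beyond sampling noise (chi-square per degree of freedom 13.3 to 97.8), so none was a copy. Principal component 1 held 56.4% of the variance over tested genes. The test steps were tested on simulated data.

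The members and gene lists were chosen with earlier results of these data known, and the promoter motifs after the results. Named were the 5 members and the Lipo genes, protein-coding genes within 250 kb, up to 4 members of each list with the smallest p, the first 2 genes of marker lists, the 5 genes most like Lipn and Lipa by Pearson r on log2 CPM (prior count 2), and genes that appeared from at most 3 reads over vehicle to at least 10 in each vincristine library. Further list members are named as context. Alternatives were DESeq2 1.42.0, limma-voom (limma 3.58.1), other scalings and filters, thinned counts, the replicate number as a block and leaving out each library. Promoters are RefSeq windows on GRCm38.p6; Lipk had no entry.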

Additional observations from a re-analysis of the deposited data

How the results depend on the processing

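The edgeR test called 60 genes in the whole comparison, and counts of calls depended on the settings. DESeq2 called 569, no low-count filter 99, the replicate number as a block 261 and counts thinned to the smallest library 36, while limma-voom, the other scalings and a filter of 1 CPM gave 42 to 51. Leaving out 1 library at a time gave 0 to 346 calls: 0 without vehicle sample 1, 2 or 3 (1462, 1063 and 1409 genes at an unadjusted p under 0.05), 346 without vincristine sample 1, 6 without sample 2 and 18 without sample 3. Over 14 alternatives Lipa lay between -0.14 and 0.030 on the log2 scale (edgeR, DESeq2 or voom adjusted p 0.592 to 0.979) and Lipk between -0.33 and 0.22 (0.695 to 0.991); neither was called under any. The mean of Lipn in vincristine lay between 2.83 and 3.69 CPM over 9 alternatives. Signs of small differences turned when a library was left out: Acta2 ranged from -0.22 to 0.51, Ifit1 from -0.34 to 0.88, Ifit2 from -0.34 to 0.14, Ifit3 from -0.14 to 0.74, Ifit1bl1 (listed as Gm14446) from -0.42 to 0.22 and Ifit3b (listed as I830012O16Rik) from -0.52 to 0.45, the last also 0.050 with limma-voom; the cause was not tested.

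Calls in lists moved too. Injury-induced genes had 12 calls, 5 without vincristine sample 2 and 0 without any vehicle library. Neutrophil and macrophage markers had 0 calls, against 11 and 7 with DESeq2, 11 and 3 with the block and 9 and 1 without vincristine sample 1. Lipid droplet genes had 0 calls, against 1 with the block or without vincristine sample 1. Deviations of same-numbered vehicle and vincristine samples from their group means had r of 0.43, 0.25 and -0.09, and those of differently numbered samples -0.49 to 0.49. Not every same-numbered pair was positive, and 3 pairs cannot settle whether the samples were matched. The samples were taken to share only a number, and the block is given as an alternative. With the replicate block Lipa was at -0.09 (edgeR adjusted p = 0.791), Lipk at -0.09 (0.929) and Ankrd22 had an adjusted p of 0.0230. Lipf, Lipm, Lipo2 and Lipo4 had too few reads to test, and vincristine sample 1 is the shallowest library.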
